A study of Rattus norvegicus with 20 samples.

Results

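The proteasome subunit genes were examined in liver RNA of 20 female Sprague Dawley rats, hybridized singly to Affymetrix 1-colour expression arrays. They were chosen by gene symbol alone (Psma to Psmg followed by a digit): 60 probe sets with 1 gene matched, for 46 genes. A probe set, the group of array probes that reports on a gene, was kept when its log2 value exceeded 4 in at least 5 of the 20 arrays, and the kept probe set of highest mean over the arrays stands for each gene. This left 44 proteasome genes of the 7837 genes measured. The other 2 matches, Psmc3ip and Psme3ip1, encode partners of subunits, not subunits, and stayed below that level. Psmb6 and Psme3 lie on probe sets that the annotation gives to several genes, and were not used here.

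All rats ate Harlan Teklad Rodent mash diet for 24 days, 5 rats to a diet. The control rats had no addition. The BNF rats received 1650 mg of 5,6-benzoflavone per kg of diet, a ligand of the aryl hydrocarbon receptor. The D3T rats received the unsubstituted dithiolethione 3H-1,2-dithiole-3-thione at 600 mg per kg, and the OLT rats received 500 mg per kg of oltipraz, which carries methyl and pyrazinyl substituents on the same ring. Dithiolethiones are known to activate the transcription factor Nrf2. Whole liver was taken, so that for every gene below a change in the RNA per cell and a change in the mix of cells cannot be told apart.

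Likeness between arrays was measured over the 12947 kept probe sets as the mean correlation of deviations from each probe set's mean. The array labelled D3T 5 was more like the OLT arrays (0.31) than the other D3T arrays (0.10), and the array labelled OLT 1 was more like the D3T arrays (0.29) than the other OLT arrays (0.09). OLT 5 was like no group, with its mean correlations between -0.06 and -0.02. The other 17 arrays were most like their own group. Results are therefore also given without D3T 5 and OLT 1.

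The proteasome is the protease that degrades ubiquitin-tagged proteins. Its barrel-shaped core, the 20S particle, has outer rings of alpha subunits that gate the channel and inner rings of beta subunits, of which Psmb5, Psmb6 and Psmb7 carry the proteolytic sites. A 19S cap of ATPase and non-ATPase subunits binds, unfolds and feeds in the substrate. In immune cells and after interferon, Psmb8, Psmb9 and Psmb10 take the places of Psmb5, Psmb6 and Psmb7 to form the immunoproteasome, which is known for making peptides for MHC class I. Proteasome genes are known to be driven by the transcription factor Nfe2l1 when proteasomes fail, and part of them by Nrf2 (gene Nfe2l2) after dithiolethiones in rodent liver.

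The promoters of 4 genes are shown because 2 of them, Psmb5 and Psmb10, were the members called against control, while Psmb7 and Psmb8 are the subunits that exchange with Psmb10 and Psmb5 in the particle. The 250 bases before the transcription start are given 5′ to 3′ on the strand of the gene, from RefSeq (build GRCr8). Capitals mark matches on either strand to TGACNNNGC, the core of the antioxidant response element, the interferon response element, or GGGCGG, the GC box.
Psmb5 (chr15:32047380-32047629, minus strand): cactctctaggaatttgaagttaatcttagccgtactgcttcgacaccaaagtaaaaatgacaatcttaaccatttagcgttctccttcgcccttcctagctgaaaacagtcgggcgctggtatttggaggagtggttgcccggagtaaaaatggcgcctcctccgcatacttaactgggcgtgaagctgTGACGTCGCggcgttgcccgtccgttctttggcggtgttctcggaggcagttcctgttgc
Psmb10 (chr19:50743293-50743542, minus strand): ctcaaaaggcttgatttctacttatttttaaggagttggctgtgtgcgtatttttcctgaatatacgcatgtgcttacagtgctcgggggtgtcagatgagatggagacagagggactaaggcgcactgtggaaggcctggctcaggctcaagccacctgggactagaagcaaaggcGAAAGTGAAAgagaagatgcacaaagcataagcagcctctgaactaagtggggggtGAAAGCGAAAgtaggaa
Psmb7 (chr3:42827471-42827720, minus strand): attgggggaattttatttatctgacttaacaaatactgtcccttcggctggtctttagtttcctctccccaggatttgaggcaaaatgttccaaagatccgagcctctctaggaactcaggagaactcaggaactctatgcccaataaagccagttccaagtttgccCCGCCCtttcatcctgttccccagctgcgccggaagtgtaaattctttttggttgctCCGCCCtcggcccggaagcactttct
Psmb8 (chr20:4657032-4657281, minus strand): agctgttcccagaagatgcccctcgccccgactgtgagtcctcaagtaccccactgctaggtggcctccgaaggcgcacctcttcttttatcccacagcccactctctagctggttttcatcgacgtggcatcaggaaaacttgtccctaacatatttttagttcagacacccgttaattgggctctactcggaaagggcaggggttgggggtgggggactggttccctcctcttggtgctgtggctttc

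The Psmb5 window held 1 match to the antioxidant response core, TGACGTCGC, which runs from 60 to 52 bases before the start. The Psmb10 window held 2 matches to the interferon element, from 73 to 64 and from 17 to 8 bases before the start, and none to the other motifs. Psmb7 had 2 GC boxes, and Psmb8 had no match to any of the 3 motifs in this window. Promoters were found for 40 of the 44 genes, by gene identifier. TGACNNNGC was in 6 of these 40 windows (15.0%): Psma3, Psmb2, Psmb5, Psmd1, Psmd9 and Psme4. It was in 10.1% of all 33469 windows of that length. The interferon element was in 5 of 40 (12.5%; Psma4, Psmb3, Psmb10, Psmd7 and Psme2) against 3.41% of all windows. GGGCGG was in 28 of 40 (70.0%) against 30.5%. Among the 21842 windows of protein-coding genes alone, GGGCGG was in 38.9%, so the contrast for the GC box was smaller there. The interferon element was in 3.27% of those windows, and TGACNNNGC was in 2302 of the 21842. These shares were not matched on base composition, and a match describes letters, not binding.

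Few proteasome genes were called between a diet and control. Psmb10, the immunoproteasome subunit that replaces Psmb7, was higher under both dithiolethiones, 1.98-fold under D3T and 1.94-fold under OLT. Psmb5, the chymotrypsin-like subunit, was 1.36-fold higher under OLT. Its D3T difference, 0.34 on the log2 scale, was not called. No other member was called against control on the deposited scale, and none was called lower. Under D3T, Psmc3 was called lower after quantile normalization and also without D3T 5 and OLT 1, and Psmd5 was called lower after quantile normalization. After centring each array on its median, Psmd8 and Psmg1 were called higher under D3T, and Psmb3, Psmc4, Psmd4 and Psmf1 under OLT. Psmb3 and Psmd4 were also called higher under OLT after quantile normalization. Calls were made with limma on 1 fit of all 20 arrays, two-sided, with p adjusted by Benjamini and Hochberg over the 12947 kept probe sets and a threshold of 0.05.

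The BNF diet shows the response to a receptor ligand that is no dithiolethione. Of the 44 genes 0 were called, where 3.48% of all kept probe sets were (450 of 12947; 2.02% lower); 4 members had an unadjusted p under 0.05. The median difference (BNF minus control) over the members was -0.03, beside -0.06 over all genes. The D3T diet shows the response to the unsubstituted ring. Of the 44 genes 1 was called higher and none lower, and 6 had an unadjusted p under 0.05, where 11.6% of kept probe sets were called (4.63% higher and 6.97% lower). The median difference was -0.05 over the members and -0.02 over all genes. The OLT diet shows the response to its substituted form. Of the 44 genes 2 were called higher and none lower, where 6.38% of kept probe sets were called (1.53% higher and 4.85% lower). The median difference was 0.10 over the members and -0.05 over all genes, and 30 of 44 members lay above 0. Under BNF and D3T 17 and 19 members lay above 0. Of all 7837 genes 2895 lay above 0 under BNF, 3705 under D3T and 3384 under OLT. Centring each array on the median of its kept probe sets adds 0.07 to every BNF difference, 0.15 to every D3T difference and 0.17 to every OLT difference. After it 28, 30 and 39 members lay above 0, so that the direction of the BNF and D3T medians depends on the scaling. The centred medians under BNF, D3T and OLT were 0.04, 0.09 and 0.26 over the members. Over all kept probe sets they were 0.02, 0.12 and 0.13. The 3 comparisons share the control arrays.

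The intervals show how small a change the arrays could have missed. The 95% interval of the difference lay between -1 and 1, that is within 2-fold either way, for 44 of 44 members under BNF, 41 under D3T and 42 under OLT; among all genes 6773, 6380 and 6471 of 7837 did so. The distance from the difference to either end of that interval was 0.31 at the median over the members and 0.36 over all genes. Differences larger than 0.5 in size were seen for 1 member under BNF (Psmb9), 2 under D3T (Psma3, Psmb10) and 2 under OLT (Psma3, Psmb10). Among all genes 955, 1507 and 1298 of 7837 reached that size.

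**Figure D1:**
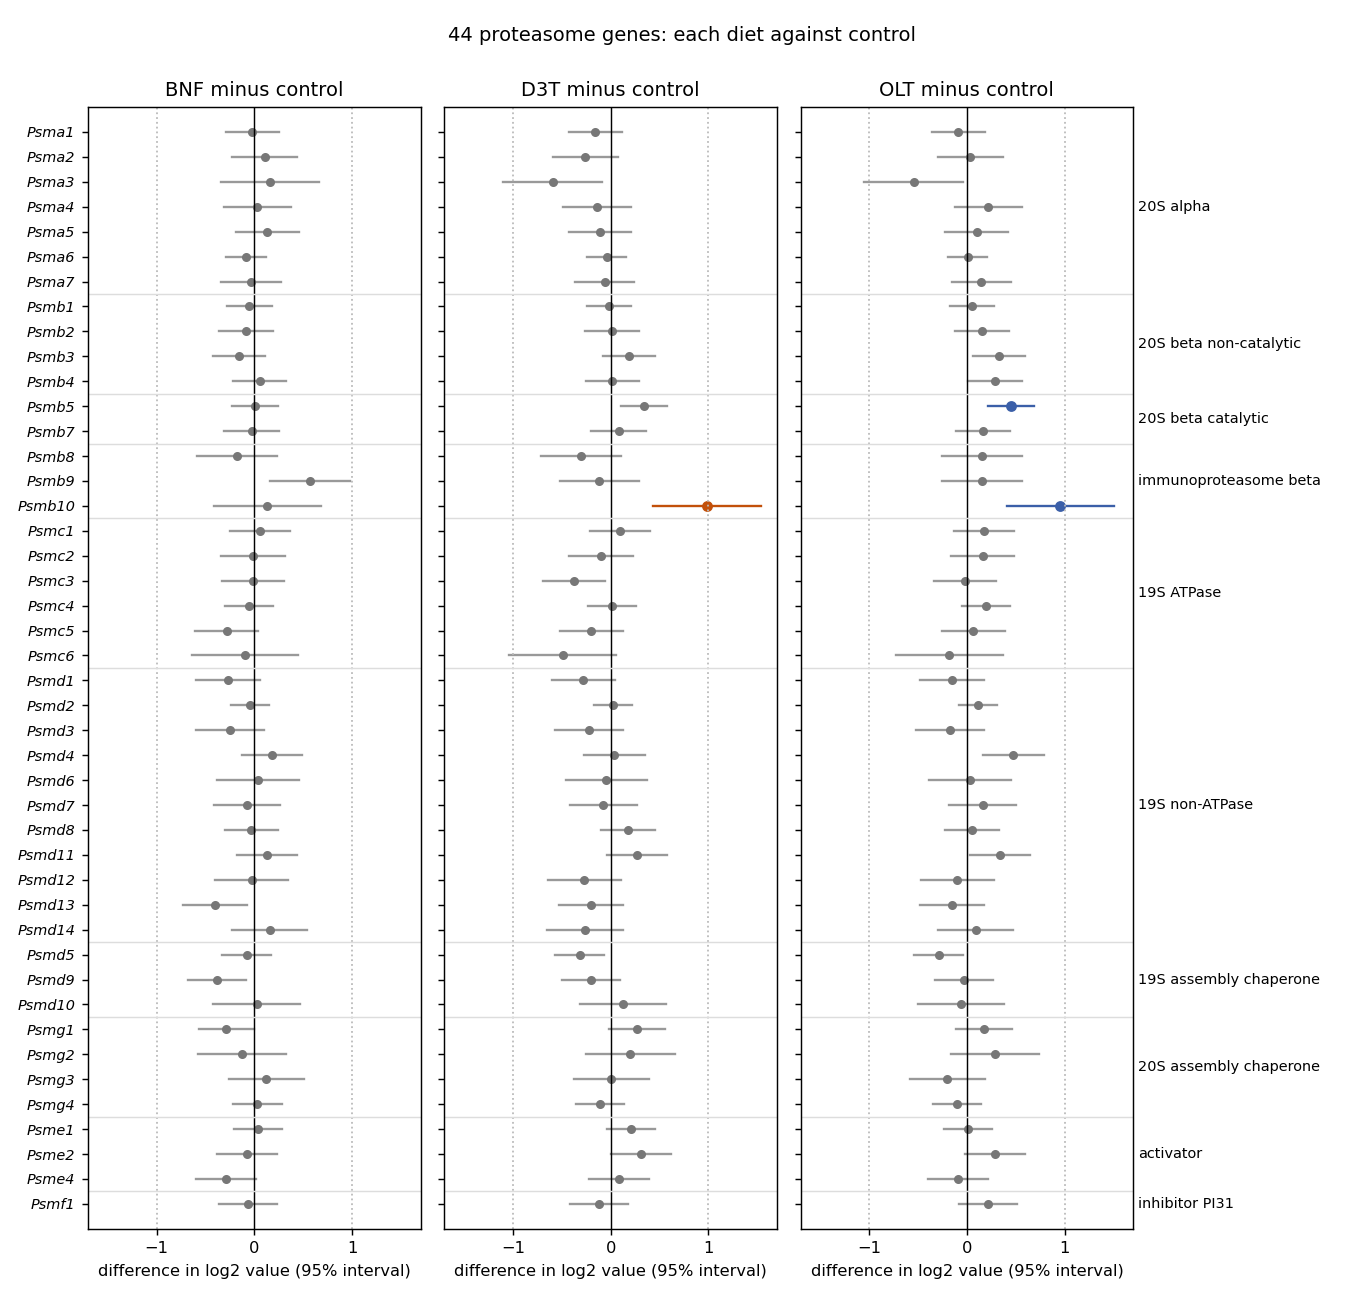
Difference in log2 value between each diet and control (horizontal axis) for the 44 proteasome genes, grouped by role; points are differences of means over 5 arrays each, bars are limma's 95% intervals, and coloured points were called at an adjusted p under 0.05. Psmb10 stands out under D3T (0.98) and OLT (0.95), Psmb5 is called under OLT (0.45), and no point is coloured under BNF; dotted lines mark a 2-fold difference.

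Psmb10 read 7.35, 7.25, 8.12, 7.24 and 7.92 in control arrays 1 to 5. In the D3T arrays it read 8.84, 7.96, 8.48, 8.62 and 8.91, and in the OLT arrays 8.68, 8.62, 7.79, 8.82 and 8.76. Of the D3T arrays 4 were above every control array, and the fifth, D3T 2, lay below control 3; of the OLT arrays 4 were above every control and OLT 3 was below 2 of them. The BNF arrays read 7.43, 8.36, 7.21, 7.39 and 8.17, with 2 of them slightly above the range of control and BNF 3 slightly below it. Psmb10 rose by 0.98 under D3T (SE 0.26, 95% interval 0.44 to 1.53, adjusted p = 0.0193 by limma) and by 0.95 under OLT (SE 0.26, 0.41 to 1.50, adjusted p = 0.0353). Under BNF the difference was 0.13 (-0.42 to 0.68, adjusted p = 0.923).

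With D3T 5 and OLT 1 left out, Psmb10 rose by 0.90 under D3T (adjusted p = 0.0457) and gave 0.92 under OLT, no longer called (adjusted p = 0.0777). The D3T call was also lost without control 2 or control 4 (adjusted p from 0.0519 to 0.0547). The OLT call was lost without any one of control 1, control 2, control 4, OLT 1, OLT 2, OLT 4 or OLT 5 (adjusted p from 0.0506 to 0.0899), with no filter (0.0856) and with only the arrays of the 2 groups (0.0651).

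Psmb5, the subunit with the site for cleavage after hydrophobic residues, read 10.88, 11.10, 11.54, 11.08 and 11.27 in control. It read 11.77, 11.61, 11.62, 11.68 and 11.42 under OLT and 11.33, 11.59, 11.60, 11.49 and 11.58 under D3T. The OLT arrays lay above every control array except that control 3 was higher than OLT 5; the D3T arrays lay above 4 of the 5 control arrays. Psmb5 rose by 0.45 under OLT (SE 0.11, interval 0.21 to 0.68, adjusted p = 0.0228 by limma). D3T gave 0.34 (0.11 to 0.58, adjusted p = 0.0549) and BNF 0.01 (-0.23 to 0.25). With D3T 5 and OLT 1 left out, the OLT difference was 0.41 (adjusted p = 0.0651), and the call was also lost without control 1, control 2, control 4 or OLT 1 alone (0.0533 to 0.0649), with no filter (0.0522) or with only the 2 groups (0.0884). D3T was called without control 3 or without D3T 1 (adjusted p = 0.0113 to 0.0404) and with a filter at log2 above 6 (0.0455). Psmb7, which cleaves after basic residues, read from 10.80 to 11.10 in control (median 11.07), from 10.70 to 11.29 under BNF, from 10.81 to 11.24 under D3T and from 10.89 to 11.51 under OLT. These ranges overlap, and Psmb7 gave -0.03, 0.08 and 0.16 under BNF, D3T and OLT, none called.

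Of the other immunoproteasome subunits, Psmb8, which replaces Psmb5, read 10.72, 10.56, 11.01, 10.68 and 10.59 in control and 10.40, 10.98, 10.22, 10.48 and 10.60 under BNF. It read 10.34, 9.99, 10.67, 10.13 and 10.90 under D3T and 10.95, 11.12, 10.22, 10.80 and 11.23 under OLT. The 4 groups overlap. Its differences from control were -0.18 (BNF), -0.31 (D3T) and 0.15 (OLT), none called. Psmb9, which replaces Psmb6, read 8.78, 9.09, 9.54, 9.14 and 9.25 in control and 10.01, 10.12, 9.34, 9.30 and 9.87 under BNF. In BNF arrays 1, 2 and 5 it lay above every control array, and the difference of 0.57 (SE 0.19, interval 0.16 to 0.97) was not called (adjusted p = 0.124). In the OLT arrays it read 9.27, 9.46, 8.87, 9.31 and 9.67. D3T gave -0.11 and OLT 0.16, neither called.

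Whether exchangeable subunits changed unequally was tested within arrays, as the difference between 2 genes in the same array, with exact two-sided permutation tests of 5 against 5 arrays; 6 such tests were run and adjusted together. Psmb10 minus Psmb7 was -3.43 ± 0.37 in control (SD, n = 5) and -2.52 ± 0.27 under D3T, higher by 0.90, with all 5 D3T arrays above every control (exact p = 0.00794, the smallest 5 against 5 can give; adjusted p = 0.0317). Under OLT it was -2.63 ± 0.30, higher by 0.79 (exact p = 0.0159, adjusted p = 0.0317), with 4 of 5 arrays above every control, and the BNF difference was 0.16 (exact p = 0.643). Psmb8 minus Psmb5 was -0.46 ± 0.20 in control and -1.11 ± 0.37 under D3T, a difference of -0.65 (exact p = 0.0159, adjusted p = 0.0317). The difference was -0.30 under OLT (exact p = 0.230) and -0.19 under BNF (exact p = 0.198), both with an adjusted p of 0.276. Only the changes are read here, since the levels of different probe sets cannot be set against each other. With D3T 5 and OLT 1 left out, the OLT test of Psmb10 minus Psmb7 gave 0.71 (adjusted p = 0.0635) and was no longer called. It was also lost without OLT 1, OLT 2, OLT 4 or OLT 5 alone (adjusted p = 0.0635 each).

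**Figure D2:**
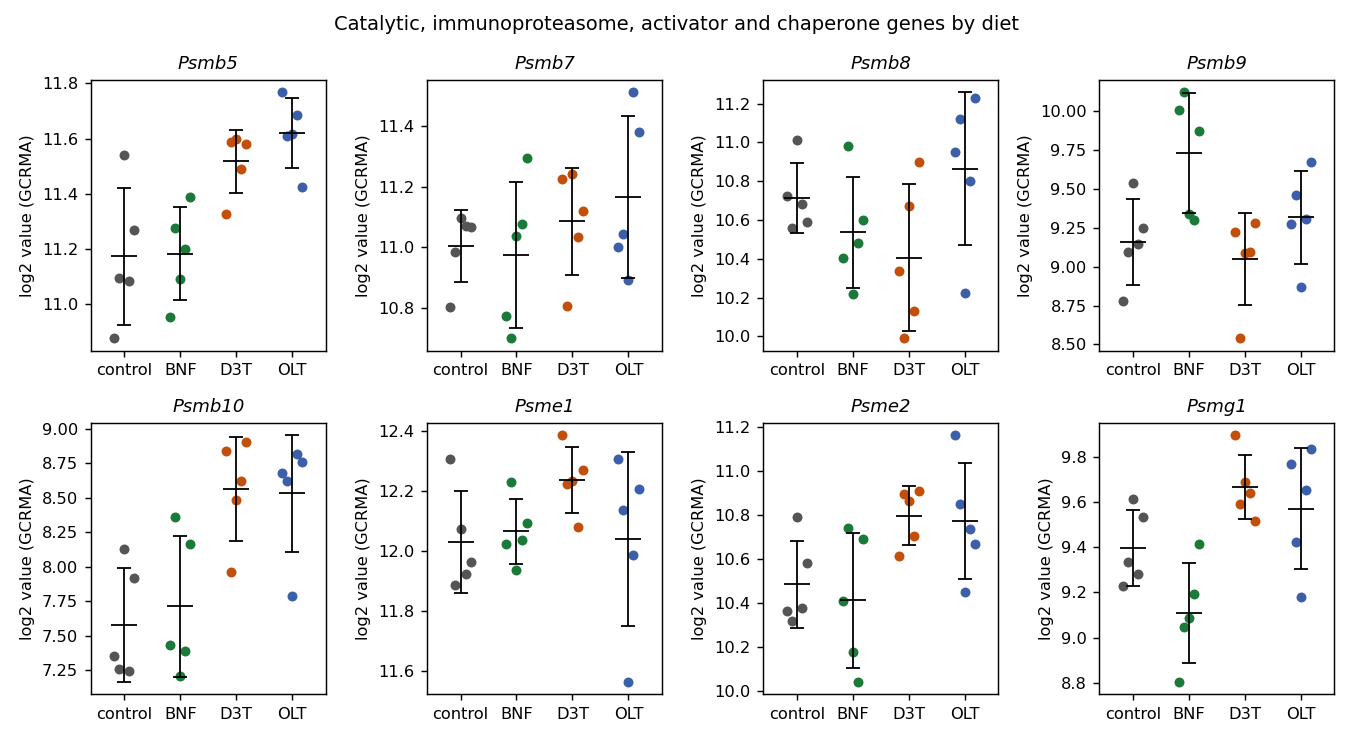
Log2 values (vertical axes, each with its own range) of 8 proteasome genes in the 5 arrays of each diet; points are arrays, and bars are mean and SD. Psmb10 is high under D3T and OLT with 1 low array in each. Psmb5 is high under OLT, where it was called, and under D3T, where it was not. Psmb9 is high in 3 of 5 BNF arrays, and Psmb8 and Psmb7 overlap across the diets.

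None of the alpha subunits, Psma1 to Psma7, was called against control. Under D3T all 7 differences were below 0, from -0.59 to -0.04 with a median of -0.14; after centring 3 of 7 were below 0, with a median of 0.01. Under OLT they ran from -0.54 (Psma3) to 0.22 (Psma4) and under BNF from -0.09 (Psma6) to 0.16 (Psma3). The lowest was Psma3 under both dithiolethiones. It read 8.73, 8.44, 7.93, 8.87 and 8.74 in control, 8.45, 7.59, 7.57, 8.21 and 7.94 under D3T, and 7.18, 7.99, 7.90, 8.55 and 8.37 under OLT. The dithiolethione arrays reached below control and overlapped with it; the difference was -0.59 under D3T (adjusted p = 0.124) and -0.54 under OLT (adjusted p = 0.189). Without OLT 1 the OLT difference of Psma3 was -0.34. Another probe set, annotated to both Psma3 and its copy Psma3l, was not used; whether the probe set used here also reads the copy was not tested. Psma6 gave the smallest intervals of the ring, -0.24 to 0.16 under D3T and -0.19 to 0.21 under OLT.

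The structural beta subunits, Psmb1 to Psmb4, gave differences from -0.16 to 0.05 under BNF, from -0.01 to 0.19 under D3T and from 0.05 to 0.33 under OLT. The highest, Psmb3 under OLT, read 9.97, 9.80, 10.16, 10.05 and 10.18 in control and 10.28, 10.40, 10.10, 10.62 and 10.42 in the OLT arrays. Of the OLT arrays 4 lay above every control array, and the difference was 0.33 (0.06 to 0.60, adjusted p = 0.130). It was called after centring each array on its median (adjusted p = 0.0290) and after quantile normalization (0.0364).

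In the 19S cap, none of the 6 ATPase genes (Psmc1 to Psmc6), which unfold the substrate, was called against control on the deposited scale. Their differences ran from -0.28 to 0.06 under BNF, from -0.49 to 0.09 under D3T and from -0.18 to 0.20 under OLT. Psmc6 was the lowest under D3T at -0.49 (adjusted p = 0.245); its other kept probe sets gave -0.19 and -0.58. Psmc3 gave -0.37 under D3T (adjusted p = 0.120), and without D3T 5 and OLT 1 it was called lower there. Psmc4 was called higher under OLT after centring. On the deposited scale none of the 11 non-ATPase genes was called either, though Psmd8 was called higher under D3T after centring. Under OLT the highest of them was Psmd4, the ubiquitin receptor, which read 9.47, 9.74, 10.16, 9.90 and 10.08 in control and 10.12, 10.42, 10.42, 10.31 and 10.42 under OLT. Of the OLT arrays 4 lay above every control and OLT 1 lay below control 3. The difference was 0.47 (0.16 to 0.78, adjusted p = 0.0634), and Psmd4 was called higher after centring, after quantile normalization and without D3T 5 and OLT 1. Psmd11, a scaffold of the lid, gave 0.27 under D3T and 0.34 under OLT, while its other kept probe set gave -0.06 and 0.00. Under BNF the lowest was Psmd13, another lid subunit, at -0.40 (adjusted p = 0.189). Psmd14, the deubiquitinase that removes the ubiquitin chain, gave 0.16, -0.26 and 0.09 under BNF, D3T and OLT.

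The chaperones that assemble the particle were not called against control on the deposited scale; under D3T, Psmg1 was called higher after centring (adjusted p = 0.0414) and Psmd5 lower after quantile normalization. Of those of the cap, Psmd5 gave -0.31 under D3T (adjusted p = 0.0985) and -0.29 under OLT (adjusted p = 0.163), and Psmd9 gave -0.38 under BNF (adjusted p = 0.160). Of the 4 that assemble the core, Psmg1 gave -0.29, 0.27 and 0.17 under BNF, D3T and OLT, so that the BNF mean lay below control and both dithiolethione means above it. Psmg2, Psmg3 and Psmg4 gave differences between -0.20 and 0.28. The activators Psme1 and Psme2 form the ring that interferon induces and that opens the core without ubiquitin. Psme2 read 10.36, 10.32, 10.79, 10.38 and 10.58 in control, 10.61, 10.90, 10.87, 10.71 and 10.91 under D3T, and 11.16, 10.85, 10.45, 10.74 and 10.67 under OLT. Of the D3T arrays 3 and of the OLT arrays 2 lay above every control. It gave -0.07 under BNF, 0.31 under D3T (0.00 to 0.62) and 0.29 under OLT (-0.02 to 0.60), and was not called. Psme1 read from 11.89 to 12.31 in control, from 11.94 to 12.23 under BNF, from 12.08 to 12.39 under D3T and from 11.57 to 12.31 under OLT, which overlap. It gave 0.03, 0.21 and 0.01, none called. Psme4, an activator found in the nucleus, and Psmf1, the inhibitor PI31, gave differences between -0.29 and 0.22 over the 3 diets. Psmf1 was called higher under OLT after centring. The other kept probe sets of Psme4 disagreed with it and with each other: they gave 0.47 and -0.12 under D3T and 0.39 and -0.30 under OLT, none called.

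Members deviated together from rat to rat within a diet. After the diet means were removed, the first component held 46.1% of the residual variance of the 44 genes, beside 29.7% for all 7837 genes, and 43 of the 44 weighted it in the same direction. The array labelled BNF 5 read above its group mean for 43 of 44 members, OLT 5 for 40 and control 5 for 37. OLT 3 read above it for 3 and control 2 for 5. The mean over the 44 genes ran from 9.87 to 10.10 in control, 9.85 to 10.25 under BNF, 9.77 to 10.15 under D3T and 9.80 to 10.31 under OLT, and these ranges overlap. The median of all kept probe sets in an array ran from 6.92 (OLT 3) to 7.47 (control 1), and its part in this pattern was not tested. The SD within a diet, averaged over the diets, was 0.23 at the median of the members and 0.25 for all genes.

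**Figure D3:**
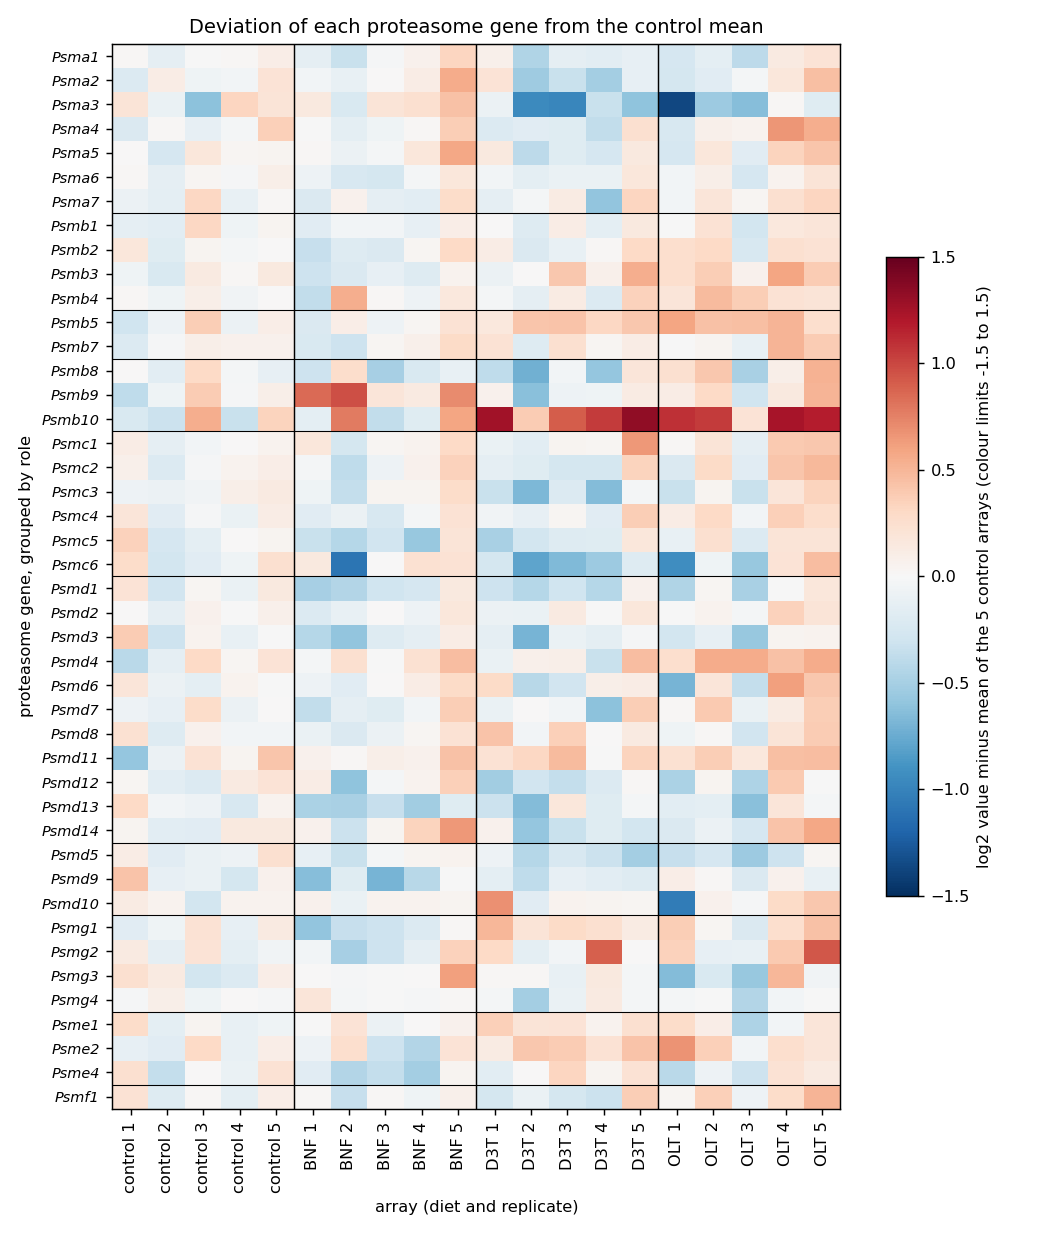
Log2 value of each proteasome gene in each of the 20 arrays, minus the mean of the 5 control arrays for that gene; rows are genes grouped by role, columns are arrays by diet, and colours saturate at -1.5 and 1.5. Psmb10 is high across D3T and OLT except D3T 2 and OLT 3, Psmb9 is high in BNF 1, 2 and 5, and whole columns such as BNF 5 and OLT 5 are shifted together.

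BNF was also compared with each dithiolethione. Between BNF and D3T 4 members were called (14.9% of kept probe sets were, 6.24% higher under BNF and 8.7% lower): Psma3 and Psmb9 were higher under BNF, and Psmb10 and Psmg1 lower. Psmg1 read 8.81, 9.05, 9.09, 9.19 and 9.41 under BNF and 9.90, 9.59, 9.69, 9.64 and 9.52 under D3T. Every BNF array lay below every D3T array; the difference was -0.56 (SE 0.14, adjusted p = 0.00892 by limma), -0.59 without D3T 5 and OLT 1 (adjusted p = 0.00909), and the call held without each array in turn. Psmb9 read 9.23, 8.54, 9.09, 9.10 and 9.28 under D3T, all below the BNF arrays, with a difference of 0.68 (SE 0.19, adjusted p = 0.0223). That call was lost without BNF 1, BNF 2 or D3T 2 (adjusted p from 0.0631 to 0.0684) and with no filter (0.0537). The BNF minus D3T difference of Psma3 was 0.75 (adjusted p = 0.0419; 0.0508 to 0.115 without any one of control 2, BNF 1, BNF 3, BNF 4, BNF 5, D3T 2, D3T 3, D3T 5 or OLT 2, and 0.0970 with no filter). Psmb10 differed by -0.85 (adjusted p = 0.0336). It was not called without BNF 1, BNF 3, BNF 4, D3T 1, D3T 3, D3T 4 or D3T 5 (0.0590 to 0.0935), without D3T 5 and OLT 1 (0.0815), with no filter (0.0787) or with only the 2 groups (0.0562).

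Between BNF and OLT 3 members were called, all lower under BNF (9.62% of kept probe sets were called, 5.33% higher under BNF and 4.29% lower). Psmb3, at 9.72, 9.81, 9.91, 9.84 and 10.09 under BNF, lay below every OLT array, by -0.49 (SE 0.13, adjusted p = 0.0199). Its call was lost without BNF 1 or OLT 4 (0.0551 to 0.0620). Psmb5, at 10.95, 11.28, 11.09, 11.20 and 11.39 under BNF, also lay below every OLT array, by -0.44 (SE 0.11, adjusted p = 0.0183), and was lost without BNF 1 (0.0629) and without D3T 5 and OLT 1 (0.0520). Psmg1 differed by -0.46 (adjusted p = 0.0360) and was lost without BNF 1, BNF 2, BNF 3, BNF 4, OLT 1, OLT 4 or OLT 5 (0.0552 to 0.113). It was lost too with no filter (0.0877), without D3T 5 and OLT 1 (0.0928), with only the 2 groups (0.110) and with the replicate number as a block (0.0504). These 2 comparisons share the BNF arrays.

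OLT and D3T, which differ by the methyl and pyrazinyl groups, were given at 500 and 600 mg per kg of diet, so that compound and dose cannot be told apart. Of the 44 members 0 were called between them by limma, as were 0% of kept probe sets (5 members and 1385 probe sets had an unadjusted p under 0.05). Of the 44 members 36 lay higher under OLT (36 after centring, 37 after quantile normalization), beside 3354 of all 7837 genes. The median difference was 0.10 (OLT minus D3T) over the members and -0.04 over all genes. Members deviated together within a diet, so they do not count as separate observations. All 7 alpha subunits and all 6 ATPases were on that side, with medians of 0.21 and 0.26. Psmb10 gave -0.03 and Psmb5 gave 0.10. Psmd4 gave 0.43 (0.12 to 0.75, adjusted p = 0.287). The 95% interval lay within 2-fold for all 44 members, and within 1.5-fold for 32. With D3T 5 and OLT 1 left out, 3 members were called higher under OLT: Psma4, Psmd4 and Psmf1. There 4.29% of 12786 probe sets were called.

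Other genes of the pathway were taken from a list of 29, of which 23 had a kept probe set of 1 gene. Under BNF 1 of the 23 was called higher and 1 lower, under D3T 1 and 3, and under OLT 0 and 3. Of all kept probe sets 1.46% were called higher and 2.02% lower under BNF. Under D3T these shares were 4.63% and 6.97%, and under OLT 1.53% and 4.85%. Pomp, the chaperone that matures the core particle, read 11.43, 11.32, 11.64, 11.44 and 11.37 in control and 11.76, 11.90, 12.07, 11.60 and 11.89 under D3T. Of the D3T arrays 4 lay above every control, and Pomp rose by 0.40 (SE 0.10, adjusted p = 0.0121). It gave 0.22 under OLT (adjusted p = 0.199) and 0.11 under BNF. Nfe2l1, the factor that drives proteasome genes when proteasomes fail, gave -0.07, -0.06 and 0.03, with intervals within -0.24 and 0.20. Its probe set hardly varied, reading from 6.87 to 7.11 in control and from 6.88 to 6.91 under BNF. Whether that probe set reports the level of the RNA was not tested, so the narrow intervals may not show a steady gene. Ddi2, the protease that releases Nfe2l1 from the membrane, read from 10.25 to 10.79 in control and from 9.17 to 10.27 under BNF. It fell by 0.89 under BNF (SE 0.18, adjusted p = 0.00703), by 0.56 under D3T (adjusted p = 0.0428) and by 0.71 under OLT (adjusted p = 0.0208). The BNF call held in every setting run. The D3T call was lost after centring (0.0962), with no filter (0.101), without D3T 5 and OLT 1 (0.0908) and without any one of 8 arrays (control 1, 2, 4 and 5, BNF 4, D3T 2, 3 and 5). The OLT call was lost without control 1 or OLT 2 and with no filter (0.0507).

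Nfe2l2, the gene of Nrf2, went in opposite directions. It read 11.86, 11.79, 11.66, 11.66 and 11.38 in control, 12.96, 12.49, 12.25, 12.74 and 12.45 under BNF, and 10.84, 9.93, 10.31, 10.84 and 10.84 under D3T. All BNF arrays lay above control and all D3T arrays below. It rose by 0.91 under BNF (SE 0.22, adjusted p = 0.0266; lost without control 4, control 5, BNF 1, BNF 2 or BNF 4, and with no filter) and fell by 1.11 under D3T (SE 0.22, adjusted p = 0.00306). OLT gave -0.63 (adjusted p = 0.0959). Nqo1, a target of Nrf2 used to check the diets, rose by 3.22 under BNF and 2.41 under D3T, and gave 1.16 under OLT (adjusted p = 0.0723). It read 11.10 in OLT 1 and from 8.82 to 9.53 in the other OLT arrays. In D3T 5 it read 9.84, and in the other D3T arrays from 10.96 to 11.51. Cyp1a1, the P450 of the aryl hydrocarbon receptor, rose by 8.33 under BNF. It was not called under D3T or OLT. It read from 3.99 to 6.59 in control, from 3.97 to 8.31 under D3T and from 3.97 to 10.28 under OLT. Zfand2a, a stress-induced protein that binds the cap, fell by 1.51 under D3T (adjusted p = 0.0389) and by 2.85 under OLT (adjusted p = 0.00101). The D3T call was lost without any one of 6 arrays (control 1, 2, 3 and 5, D3T 4 and 5), with no filter (0.0915) and with only the 2 groups (0.0525). Zfand5, a ubiquitin-binding activator of the proteasome, fell by 0.59 under OLT (adjusted p = 0.0395; 0.0757 without D3T 5 and OLT 1, and lost too without control 1, 4 or 5, BNF 1, OLT 1, 2 or 3, with no filter and with only the 2 groups).

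**Figure D4:**
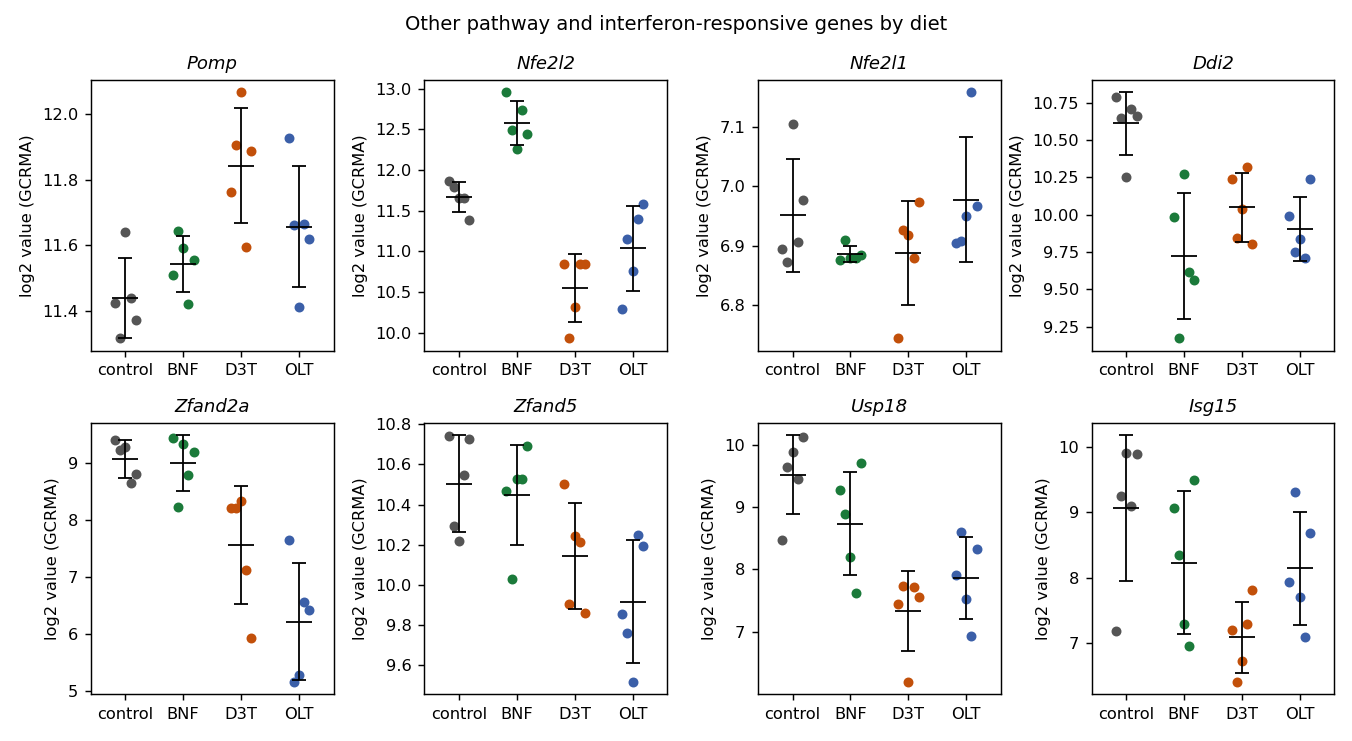
Log2 values (vertical axes, each with its own range) of 8 genes outside the subunit list in the 5 arrays of each diet; points are arrays, and bars are mean and SD. Nfe2l2 is high under BNF and low under D3T, Ddi2 is low under all 3 diets, Zfand2a is low under OLT, and the Nfe2l1 ranges overlap across the diets.

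Interferon-responsive and antigen-processing genes are given because interferon is the known inducer of the immunoproteasome and the printed Psmb10 window holds matches to its element. Of 16 listed, 11 were measured, and none was called higher than control under any diet. Under D3T 2 were called lower, and under OLT 1. Of all kept probe sets 1.46%, 4.63% and 1.53% were called higher under BNF, D3T and OLT, and 2.02%, 6.97% and 4.85% lower. Usp18, an interferon-induced protease, fell by 2.19 under D3T (adjusted p = 0.00196) and fell by 1.66 under OLT (adjusted p = 0.0210, lost without control 5, OLT 3 or OLT 4 and with no filter). It read from 8.48 to 10.13 in control, from 6.20 to 7.74 under D3T and from 6.93 to 8.60 under OLT. Isg15, the interferon-induced ubiquitin-like protein, fell by 1.97 under D3T (adjusted p = 0.0237; lost without control 2, 3 or 5 or D3T 2 or 3, and with no filter). Irf1, a transcription factor of the interferon response, gave 0.50 under BNF, 0.50 under D3T and 0.15 under OLT, none called. Tap1, which lies beside Psmb9 and carries peptides into the endoplasmic reticulum, gave 0.10, -0.59 and -0.20, none called. B2m, the light chain of MHC class I, gave 0.05, 0.03 and 0.09. A part of interferon in the Psmb10 difference was not tested.

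Immune cells carry immunoproteasomes, so their markers stand beside Psmb9 and Psmb10. Of 12 macrophage and Kupffer cell markers 10 were measured (Marco and Vsig4 had no kept probe set). Under BNF 2 were called higher than control, 8 higher than D3T and 10 higher than OLT. Of all kept probe sets 1.46%, 6.24% and 5.33% were called higher in these comparisons. Psmb9 was not called between BNF and OLT (0.41, adjusted p = 0.197 by limma). Under OLT 1 of the 10 macrophage and Kupffer cell markers, Cd163, was called lower than control (4.85% of kept probe sets were). Their summed level on the log2 scale ran from 11.58 to 12.38 in control, 12.26 to 13.42 under BNF, 11.07 to 12.27 under D3T and 10.61 to 12.22 under OLT. Of 13 lymphocyte and NK cell markers 4 were measured, summing to 10.04 to 11.19 in control, 11.54 to 12.36 under BNF, 9.32 to 11.05 under D3T and 9.57 to 10.94 under OLT. The T cell markers Cd3d, Cd3g, Cd8a and Cd4 were among those with no kept probe set. The lymphocyte sum is mostly Cd74, an MHC class II chain that macrophages make too, which read from 9.91 to 11.12 in control and from 11.48 to 12.28 under BNF. Cd3e, the T cell marker measured, read from 4.88 to 5.22 in control and from 4.70 to 5.06 under BNF and was not called. The sums were highest under BNF, where Psmb9 was highest, and their part in the Psmb9 difference was not tested. Under D3T and OLT, where Psmb10 was high, 0 markers of either list were called higher (4.63% and 1.53% of kept probe sets were). With so few markers that count is near these shares, and the part of immune cells in the Psmb10 difference was not tested. Hepatocyte markers (7 of 8 measured) summed with medians of 17.71 in control, 17.81 under BNF, 17.87 under D3T and 17.89 under OLT.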

How the data were processed

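Per the labels, total RNA of rat liver was biotin-labelled and hybridized to 1-colour arrays, 1 per rat. Per the submitters' processing notes the values were made with GCRMA, whose version is not given in the sources used here. The deposited values are log2 summaries per probe set, which the authors had background-corrected and normalized between arrays, and they were used as given. The files used hold no scan dates, so no batch could be looked for. Names came from the platform's annotation, with symbols updated by gene identifier from RefSeq (GRCr8).

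Of 31042 probe sets 12947 passed the filter (log2 above 4 in at least 5 arrays). The cell type lists (hepatocyte, macrophage and Kupffer cell, lymphocyte and NK cell, endothelial, stellate, cholangiocyte), the pathway list, the antigen-processing and interferon list and the diet check took genes by symbol. The kept probe sets were fitted with limma 3.58.1 (lmFit, eBayes with trend) in R 4.3.3, with a mean per diet and no block, for 6 comparisons. Adjusted p-values, SE and 95% intervals come from this fit. The number of arrays limits the precision.

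Genes described in full were the catalytic, immunoproteasome and Psme1 and Psme2 genes and the called members. Of the highest and lowest members of each role only some are named. The members, the lists and the alternatives were chosen with earlier results of these data known. Psmb9 minus Psmb6 was planned and could not be formed, since no kept probe set names Psmb6 alone. Replicate numbers were checked for pairing: deviations of same-numbered arrays correlated between -0.198 and 0.225 with control, not above 0.1 in every pair, so the numbers were not taken to pair rats.

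Alternatives were centring each array on its median, quantile normalization, no filter or a filter at 6, eBayes without trend or robust, a fit of 2 groups alone, a replicate block, averaging all kept probe sets of each gene, and omission of single arrays or of D3T 5 with OLT 1.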

Additional observations from a re-analysis of the deposited data

Results flagged for a closer look

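Each of the 44 genes was examined in each diet for 1 array far from its group (Dixon's test, 5 arrays). Of 176 sets of 5, 16 (9.09%) held one, where chance gives about 1 in 20 for normally distributed values. Members deviated together within a diet, so the sets are not independent and no excess is read from this share. In control, Psmd10 read 6.75 in array 3, below the nearest at 7.07. Among BNF arrays, Psmc6 read 10.92 in BNF 2 (nearest 12.03) and Psmd10 read 6.92 there (nearest 7.06). Psmd11 read 11.12 in BNF 5 (nearest 10.77), Psmg3 read 6.09 in BNF 5 (nearest 5.49) and Psmg4 read 7.17 in BNF 1, the highest of its group.

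Among D3T arrays, the array labelled D3T 5, more like the OLT arrays by correlation, was high for 3 cap subunits: Psmc1 at 10.71 (nearest 10.11), Psmc2 at 11.62 (nearest 11.15) and Psmd1 at 9.16 (nearest 8.79). D3T 2 was low for Psmb9 at 8.54 (nearest 9.09), Psmd3 at 8.63 (nearest 9.18) and Psmd9 at 7.88 (nearest 8.07), and Psmd10 read 7.70 in D3T 1 (nearest 7.07). Among OLT arrays, OLT 3 was low for Psmb10 at 7.79 (nearest 8.62), Psmb2 at 10.21 (nearest 10.66) and Psmg4 at 6.54 (nearest 6.94).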

How the results depend on the processing

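After centring on the array median, 3 proteasome genes were called under D3T (15% of all kept probe sets were), 6 under OLT (8.74%) and 9 between BNF and OLT (13.4%). After quantile normalization the counts were 3 under D3T, 2 of them lower (14.5% of all), 4 under OLT (8.88%), 9 between BNF and D3T (18.5%) and 6 between BNF and OLT (13.9%). With no filter 0 were called under OLT (limma; 8 had an unadjusted p under 0.05 with the filter) and 1 between BNF and D3T; with a filter at 6, 2 under D3T; with only the 2 groups, 0 under OLT. Without the arrays labelled D3T 5 and OLT 1 the counts were 2 under D3T (13.4% of all), 1 under OLT (4.68%), 1 between BNF and OLT (8.06%) and 3 between OLT and D3T (4.29%). Leaving out 1 array at a time gave 0 to 2 calls under D3T, 0 to 3 under OLT, 1 to 6 between BNF and D3T and 0 to 4 between BNF and OLT. It gave 0 under BNF and between OLT and D3T. Where no share of all probe sets stands beside a count here, that share is not given. Those counts are therefore not read as particular to the proteasome genes.

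Some differences near 0 changed sign, none of them called. Psmb7 under BNF was 0.0385 after centring and 0.0653 after quantile normalization, Psme2 under BNF was 0.000324 after quantile normalization, and Psmb9 under D3T was 0.0312 after centring. Psme1 under OLT was -0.0570 without the arrays labelled D3T 5 and OLT 1. Leaving out single arrays gave -0.0649 to 0.101 (Psmb5), -0.108 to 0.0406 (Psmb7), -0.0293 to 0.269 (Psmb10), -0.00680 to 0.104 (Psme1) and -0.156 to 0.0189 (Psme2) under BNF. It gave -0.210 to 0.0125 for Psmb9 under D3T and -0.0570 to 0.128 for Psme1 under OLT. Psmb10 minus Psmb7 ran from -0.0699 to 0.302 under BNF and from 0.69 to 0.91 under OLT, where it was 0.71 without the arrays labelled D3T 5 and OLT 1.

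With the replicate number as a block, the exact pairing test cannot pass the threshold with 5 pairs: Psmb8 minus Psmb5 gave -0.65 under D3T, and Psmb10 minus Psmb7 gave 0.90 under D3T and 0.79 under OLT (adjusted p = 0.25 each). The cause of these changes was not tested. Signal over background could not be assessed from the deposited values.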

Other observations

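Further marker lists were read for the mix of cells. Of 3 measured stellate cell markers 2 (Col1a1 and Col3a1) were called higher under BNF than control, and none under D3T or OLT. Of all kept probe sets 1.46%, 4.63% and 1.53% were called higher under BNF, D3T and OLT. None of 5 endothelial markers and not the 1 measured cholangiocyte marker was called in any of the 6 comparisons by limma. Gbp2, an interferon-induced GTPase, was higher under BNF than under D3T by 1.34 (adjusted p = 0.00396) and than under OLT by 1.50 (adjusted p = 0.00291), and these calls held in every alternative run. Ecpas, a scaffold that binds the proteasome, differed by -0.62 between BNF and D3T (adjusted p = 0.0184) and was lost without D3T 2 or D3T 3. The mean of its kept probe sets gave -0.34 (adjusted p = 0.0462).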
